A study of Mus musculus with 23 samples.

Results

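The 6 genes described here, Ly6a, Ly6c1, Ly6c2, Ly6d, Ly6e and Ly6k, encode Ly6 surface antigens and are listed among 23985 gene symbols that occur in all 3 expression tables of the series. The list was chosen by RPKM levels and group differences seen in these same tables, so every level and difference given for them is a description and carries no p-value. The series profiled RNA from sorted mouse mammary cells, about 2000 cells a library, in 23 libraries of 9 groups. The normal libraries came from wild-type C57BL6J mammary gland, with 2 libraries each of fMaSC (the fetal mammary stem cell fraction of embryonic day 18), adult basal, adult luminal progenitor and adult mature luminal cells. The PY230 libraries came from tumours grown in adult syngeneic C57BL6J mice after transplantation of PY230 cells, a single cultured line that stems from a polyoma middle T mammary tumour. These tumours were sorted into a basal fraction that was SOX10 high and 2 luminal fractions, one SOX10 high and one SOX10 low, each with 2 libraries. The C3-1-TAg libraries came from spontaneous tumours of adult FVB mice that carry the large T antigen under the C3-1 promoter, with 5 SOX10 high and 4 SOX10 low libraries. The sample titles call both of these C3-1-TAg groups basal. All groups of a tumour model share its oncogene and strain. The labels name no surface markers for the sorts. Antibodies to the Ly6a product are a common reagent for parting luminal cells, so whether Ly6a entered the normal luminal gates is not known here.

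Ly6 proteins are small surface proteins with 1 three-fingered, disulfide-rich domain, held to the outer membrane by a glycosylphosphatidylinositol (GPI) anchor. Several are induced by interferons, and several mark stem, progenitor or differentiation states of blood, skin and gland. Ly6a is better known as Sca-1, a marker of blood-forming stem cells that also stains mature luminal cells of the mammary gland. On mouse chromosome 15, the order of the protein-coding genes in the reference annotation was Ly6d, Ly6g6g, Ly6k, Gml, Gml2, Cyp11b1, Cyp11b2, Ly6m, Ly6e, Ly6i, Ly6a, Ly6c1 and Ly6c2, so Ly6a, Ly6c1 and Ly6c2 are immediate neighbours.

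Ly6c1 and Ly6c2 are near copies whose levels differed widely in these tables, and their promoters show how close the pair is. RefSeq promoter windows of 300 bases around the start, of build GRCm38.p6 were at hand for these 2 members and are read 5′ to 3′ on the minus strand. The Ly6c1 window is chr15:75048788-75049087 and the Ly6c2 window is chr15:75111922-75112221. Capitals mark bases that differ between both windows or have no partner in their alignment, and lower case marks identical bases.
Ly6c1: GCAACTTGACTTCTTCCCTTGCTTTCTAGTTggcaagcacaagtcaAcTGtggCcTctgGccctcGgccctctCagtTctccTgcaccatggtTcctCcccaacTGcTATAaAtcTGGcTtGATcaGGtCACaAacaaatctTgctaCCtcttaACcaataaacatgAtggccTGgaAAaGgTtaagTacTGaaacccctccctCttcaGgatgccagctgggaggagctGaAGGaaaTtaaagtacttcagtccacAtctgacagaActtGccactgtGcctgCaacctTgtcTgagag
Ly6c2: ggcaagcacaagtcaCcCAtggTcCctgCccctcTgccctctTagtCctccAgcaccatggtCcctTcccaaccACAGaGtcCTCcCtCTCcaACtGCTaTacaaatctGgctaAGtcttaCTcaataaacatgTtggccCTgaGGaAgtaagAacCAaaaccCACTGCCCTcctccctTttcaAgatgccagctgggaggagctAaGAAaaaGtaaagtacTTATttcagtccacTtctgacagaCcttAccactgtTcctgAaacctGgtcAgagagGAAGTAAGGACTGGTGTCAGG
Over the aligned part, 208 of 266 bases (78.2%) were identical. A search of both strands for TATAAA found 1 match in this Ly6c1 window and 0 in this Ly6c2 window, and 13.6% of all 32851 promoter windows hold one. Neither window holds TTCNNNGAA, the letters of a STAT factor site, which 8.30% of all windows hold, or GAAANNGAAA, the letters of an interferon response element, which 3.44% hold. Both genes have 2 promoter entries, and the second entries held no match to any of these motifs. The transcripts are alike too: 32.8% of the 50-base words of Ly6c1 transcripts, 19.0% of those of Ly6a and 14.4% of those of Ly6c2 also occur in transcripts of other genes. The words of Ly6c1 were shared most with Ly6c2. For Ly6d, Ly6e and Ly6k that share was 0. The reads were 50 or 75 bases long, so how they were divided between Ly6a, Ly6c1 and Ly6c2 is uncertain, and the low Ly6c2 values most of all.

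All levels below are RPKM (reads scaled to transcript length and library size) as deposited, with 2 taken off each C3-1-TAg value above 0. That a constant of 2 had been added there is inferred from the values, the smallest above 0 being 2.001, and is stated in no label. If none had been added, every C3-1-TAg level above 0 would be 2 RPKM higher than given here. RPKM are scaled to transcript length, so levels can be set side by side between genes. Each table was normalized on its own, and tests stayed within a table. Differences are on the log2(RPKM + 1) scale from a limma fit to all genes of a table, with the standard error (SE), and 12553, 13136 and 11948 genes passed the filter in the normal, PY230 and C3-1-TAg tables. A gene was called when its Benjamini-Hochberg adjusted p was under 0.05. The median difference over all genes was 0.27, 0.39 and 0.53 for fMaSC against basal, luminal progenitor and mature luminal cells, -0.21 and -0.16 for the PY230 basal fraction against luminal SOX10 high and low cells, and between -0.04 and 0.12 in the other 5 comparisons. Relative depth, read from the spacing of low values, ran from 0.745 to 1.37 of the first library in PY230 and from 0.626 to 1.3 in C3-1-TAg; it could not be read in the normal table. Sox10 checked the sort: it was 66.9 to 101 RPKM in the PY230 SOX10 high libraries against 11.01 and 13.6 in the SOX10 low ones, and 91.9 to 164 against 2.10 to 40.9 in C3-1-TAg. One C3-1-TAg library, SOX10 low replicate 1, stood apart in immune markers, with a summed level of 1482 RPKM over 18 genes against 14.3 to 142 in the other 8. In bulk libraries such as these, fewer cells of a type and less RNA per cell cannot be told apart.

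In the normal gland, Ly6a and Ly6d were lowest in fMaSC, intermediate in basal and luminal progenitor cells and highest in mature luminal cells. Ly6a was 18.4 and 14.0 RPKM in the fMaSC libraries, 534 and 279 in basal, 392 and 427 in luminal progenitor, and 3827 and 3407 in mature luminal libraries. The basal and luminal progenitor libraries interleaved, and the other groups lay apart from them and from each other. On the log2 scale, the mature luminal minus luminal progenitor difference of Ly6a was 3.14 (SE 0.31), and the fMaSC minus mature luminal difference was -7.73 (SE 0.31), the widest gap of any member in any comparison. The basal minus luminal progenitor difference was -0.08 (SE 0.31).

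Ly6d, whose protein is the E48 antigen of keratinocytes and an early mark of B lymphocyte precursors, ran in the same order. Its levels were 81.6 and 70.9 RPKM in fMaSC, 651 and 275 in basal, 567 and 564 in luminal progenitor, and 4725 and 5892 in mature luminal libraries. Again the basal libraries lay on both sides of the luminal progenitor ones. Mature luminal exceeded luminal progenitor cells by 3.22 (SE 0.38), and the fMaSC minus mature luminal difference was -6.10 (SE 0.38). In mature luminal replicates 1 and 2, Ly6d ranked 13 and 5 among all genes by RPKM, and it took 0.801% and 0.972% of the summed RPKM.

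Ly6e was high in every population and had another order. This interferon-induced member is known as a placental receptor for syncytin and as a restriction factor against coronavirus entry. It reached 1595 and 1503 RPKM in fMaSC, 1357 and 521 in basal, 2123 and 2517 in luminal progenitor, and 6589 and 4713 in mature luminal libraries. Here basal and not fMaSC libraries were lowest, both below every fMaSC library. On the log2 scale the basal libraries differed more from each other than those of any other normal group did. The fMaSC minus basal difference was 0.88 (SE 0.43), which became 0.19 without basal replicate 2 and 1.57 without basal replicate 1. The fMaSC minus mature luminal difference was -1.85 (SE 0.43), and the fMaSC minus luminal progenitor difference was -0.58 (SE 0.43).

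Ly6c1, an antigen of endothelial cells and lymphocytes, was found at moderate levels. It was 13.8 and 3.85 RPKM in fMaSC, 20.9 and 48.9 in basal, 18.5 and 32.6 in luminal progenitor, and 110.3 and 110.7 in mature luminal libraries. Only the basal and luminal progenitor libraries overlapped. The mature luminal minus luminal progenitor difference was 2.12 (SE 0.59).

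Ly6c2, an antigen of monocytes and lymphocytes, was listed at 0 in all 6 fMaSC, basal and luminal progenitor libraries and at 2.36 and 2.90 RPKM in the mature luminal ones. It passed the filter through mature luminal cells alone, so it could only differ there. Within the mature luminal libraries, Ly6c1 was thus far above its near copy. Ly6k, which is known from testis and sperm, was low: 0.414 and 0.220 RPKM in fMaSC, 2.16 and 7.32 in basal, 5.28 and 8.35 in luminal progenitor, and 15.8 and 26.1 in mature luminal libraries. Its order was that of Ly6a and Ly6d, with basal and luminal progenitor libraries overlapping, and the mature luminal minus luminal progenitor difference was 1.48 (SE 0.48).

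**Figure D1:**
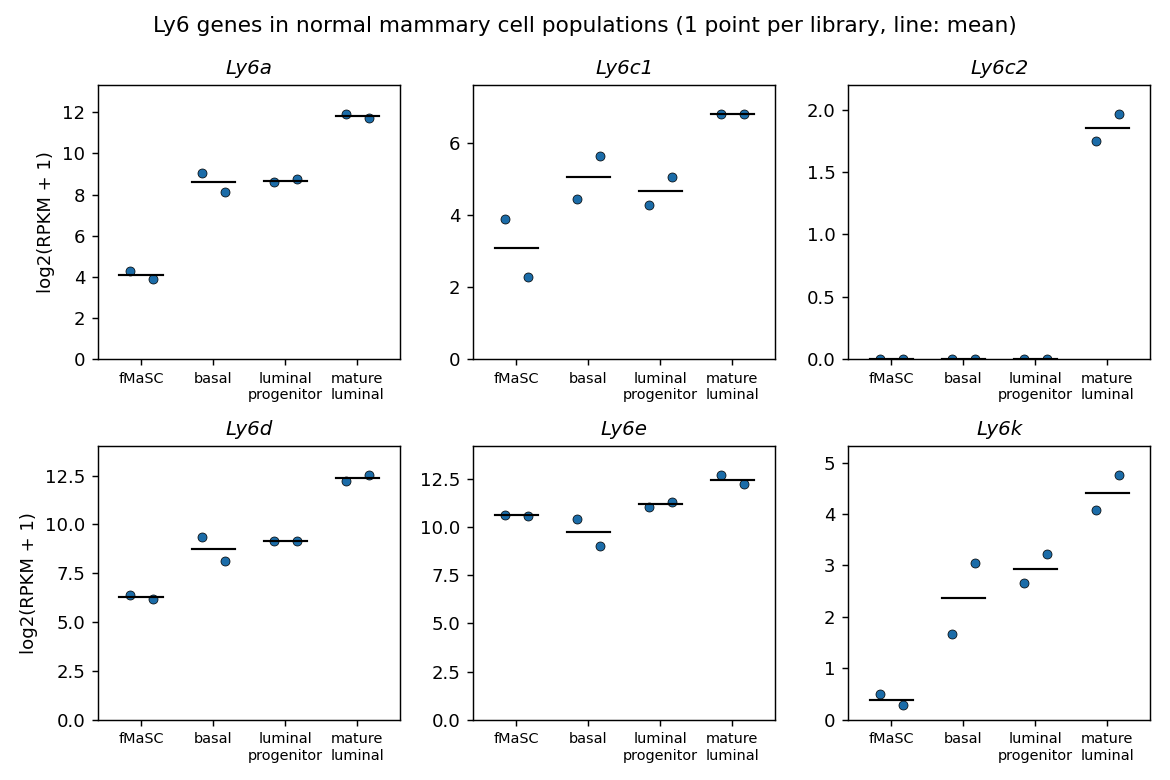
Level of each Ly6 gene in the 8 normal libraries, as log2(RPKM + 1) on the vertical axis with 1 point per library and a line at the group mean. Mature luminal cells are highest for all 6 genes, fMaSC are lowest for Ly6a, Ly6c1, Ly6d and Ly6k, and Ly6e alone is lowest in basal cells.

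Against mature luminal cells, all 6 members were called lower in fMaSC, where 14.7% of all genes tested were called lower and 41.7% higher. The same 6 were called lower in basal than in mature luminal cells, beside 19.8% of all genes lower and 28.8% higher. In mature luminal against luminal progenitor cells, 4 members (Ly6a, Ly6c1, Ly6c2 and Ly6d) were called higher and 0 lower, beside 8.63% and 13.4% of all genes. In fMaSC against basal cells, 4 members (Ly6a, Ly6c1, Ly6d and Ly6k) were called lower, beside 23.4% of all genes lower and 36.9% higher. In fMaSC against luminal progenitor cells, 3 (Ly6a, Ly6d and Ly6k) were called lower, beside 15% lower and 35.5% higher. Basal against luminal progenitor cells gave 1 call, Ly6e (-1.46, SE 0.43), lower in basal cells, beside 14.5% of all genes lower and 21% higher. The counts against mature luminal cells include Ly6c2, which passed the filter through those cells alone and could differ only in that direction. Since these contrasts entered the choice of the genes, nothing is read from the counts.

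With 2 libraries a group, single libraries weighed on some of these values. Without fMaSC replicate 2, calls against basal cells fell from 4 to 2. Without mature luminal replicate 2, calls of basal against mature luminal cells fell from 6 to 3, and without either mature luminal replicate those against luminal progenitor cells fell from 4 to 2. In basal against luminal progenitor cells the count was 2 without basal replicate 1 and 0 without either luminal progenitor replicate. In that comparison the differences of Ly6a, Ly6c1, Ly6d and Ly6k were uncalled and took either sign depending on which basal or luminal progenitor library was left out. For Ly6c1, the fMaSC minus luminal progenitor difference was -1.59, and -2.40 or -0.79 without fMaSC replicate 1 or 2.

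The summed level of 5 markers of hormone-sensing luminal cells (Esr1, Pgr, Prlr, Foxa1 and Cited1), most of it from Prlr, moved with Ly6a and Ly6d in the normal table. It was 66.4 and 68.7 RPKM in fMaSC, 815 and 1034 in basal, 592 and 789 in luminal progenitor, and 4878 and 5022 in mature luminal libraries, with 4 of 5 markers at 1 RPKM or more in fMaSC and 5 of 5 elsewhere. None of the 5 was at 0 in any normal library. Foxa1 did not follow the sum: it was 7.04 and 8.05 RPKM in fMaSC, within the range of the basal libraries at 16.7 and 6.39. The basal libraries, which carried Krt14 at 1213 and 532 RPKM, thus also held Prlr, the prolactin receptor, at 879.6 and 732 RPKM, or 21.2% and 17.6% of the mature luminal mean. Ly6a in the same basal libraries was at 14.8% and 7.72% of its mature luminal mean, and Ly6d at 12.3% and 5.19%. For the luminal progenitor libraries these shares were 16% and 11.6% for Prlr, 10.8% and 11.8% for Ly6a, and 10.7% and 10.6% for Ly6d. The part of hormone-sensing cells in the basal and luminal progenitor values of Ly6a and Ly6d was not tested. In fMaSC, Ly6e was at 28.2% and 26.6% of its mature luminal mean, Prlr at 1.21% and 1.19%, Pgr at 2.68% and 1.79%, Esr1 at 0.503% and 0.589%, Cited1 at 1.07% and 0.974%, and Foxa1 at 12.3% and 14.1%.

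Endothelial markers were examined beside Ly6c1, since vessel cells carry its protein. The 11 markers summed to 54.0 and 79.7 RPKM in the mature luminal libraries, of which Vwf gave 43.7 and 56.9, while Cdh5 was listed at 0 and at 1.44 and Pecam1 at 0.916 and 4.24. In those same 2 libraries Ly6c1 hardly differed. Basal replicate 2 had more endothelial marker RNA than basal replicate 1, with sums of 66.8 and 28.6 RPKM and 9 and 6 of 11 markers at 1 RPKM or more. Emcn was 25.1 against 0.462 RPKM in this pair, and Ly6c1 was 48.9 against 20.9. Whether vessel cells gave that Ly6c1 difference was not tested.

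In the PY230 tumours, 5 of the 6 genes followed 1 order: highest in luminal SOX10 low, intermediate in luminal SOX10 high and lowest in basal SOX10 high cells. Ly6a was 764 and 653 RPKM in luminal SOX10 low, 129.5 and 346 in luminal SOX10 high, and 15.3 and 46.9 in basal SOX10 high libraries. The groups did not overlap, though the luminal SOX10 high libraries lay far apart. The luminal SOX10 high minus low difference was -1.73 (SE 0.59), and the basal minus luminal SOX10 low difference was -4.66 (SE 0.59).

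Ly6d was 1242 and 1196 RPKM in luminal SOX10 low, 272 and 546 in luminal SOX10 high, and 28.3 and 61.5 in basal SOX10 high libraries. Its 2 luminal SOX10 low libraries were nearly level, and no groups overlapped. The difference between luminal SOX10 high and low cells was -1.66 (SE 0.43), and that between basal and luminal SOX10 low cells was -4.83 (SE 0.43).

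Ly6e was 1084 and 1176 RPKM in luminal SOX10 low, 770.0 and 666 in luminal SOX10 high, and 244 and 197 in basal SOX10 high libraries. This was the PY230 member with the smallest standard error, without overlap between groups. The differences were -0.66 (SE 0.19) for luminal SOX10 high against low and -2.36 (SE 0.19) for basal against luminal SOX10 low cells.

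The rarer members kept the order at lower levels. Ly6c1 was 49.5 and 29.6 RPKM in luminal SOX10 low, 7.83 and 21.8 in luminal SOX10 high, and 1.90 and 4.45 in basal libraries. Ly6k was 8.16 and 5.55 RPKM in luminal SOX10 low, 5.34 and 4.12 in luminal SOX10 high, and 1.59 and 3.10 in basal libraries, so its luminal groups lay close together (difference -0.44, SE 0.28). Ly6c2 did not follow. It was 0.189 and 0 RPKM in luminal SOX10 low, 1.29 and 0.173 in luminal SOX10 high, and 0.384 and 0.210 in basal libraries, and it failed the filter on low values in this table.

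**Figure D2:**
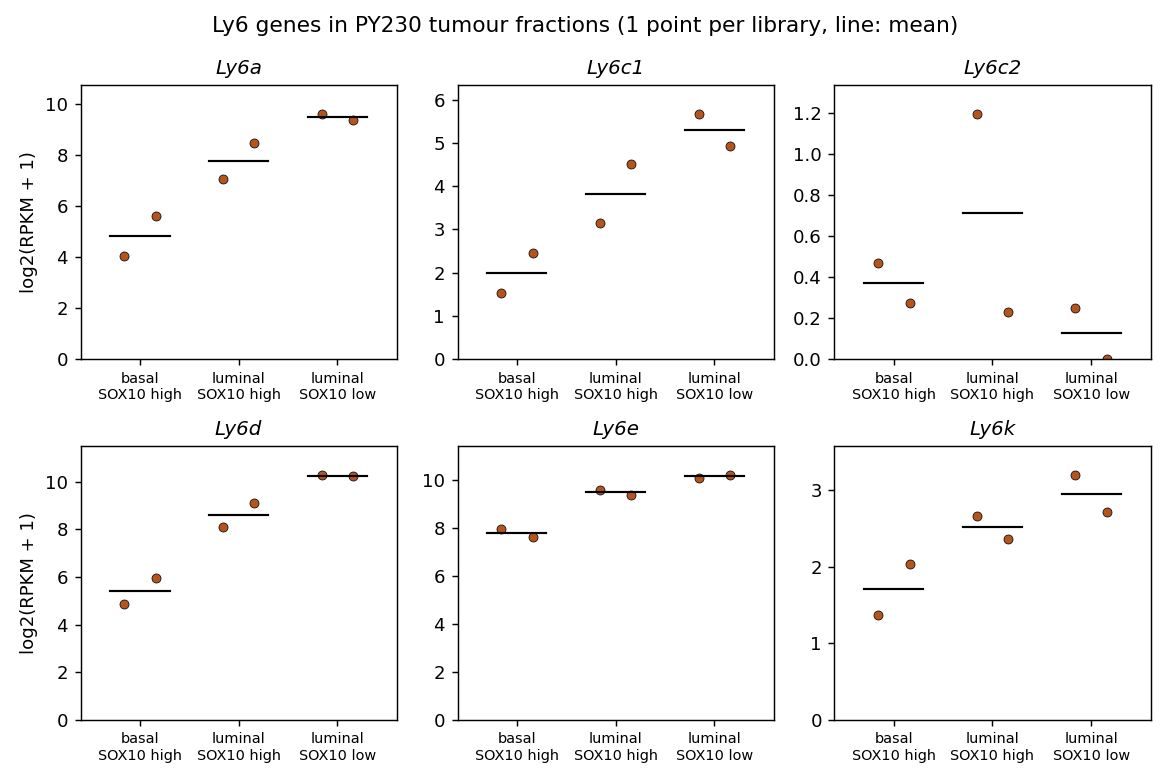
Level of each Ly6 gene in the 6 PY230 libraries, as log2(RPKM + 1) with 1 point per library and a line at the group mean. For Ly6a, Ly6c1, Ly6d, Ly6e and Ly6k the points climb from basal SOX10 high over luminal SOX10 high to luminal SOX10 low cells, and Ly6c2 stays near 0.

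Of the 5 members tested in PY230, all 5 were called lower in basal than in luminal SOX10 low cells, where 33.4% of all genes tested were called lower and 21.8% higher. Against luminal SOX10 high cells, 4 (Ly6a, Ly6c1, Ly6d and Ly6e) were called lower in basal cells, beside 28.2% lower and 13.8% higher of all genes. Between the luminal fractions 1 member, Ly6d, was called lower in SOX10 high cells, beside 10% of all genes lower and 12.6% higher. That last count was 3 without luminal SOX10 high replicate 2 and 0 without any one of the other 3 luminal libraries, and it was 2 with the replicate number as a block. Without luminal SOX10 high replicate 1, the Ly6a difference between the luminal fractions was -1.03 and that of Ly6c1 was -0.79, in place of -1.73 and -1.47. Without luminal SOX10 high replicate 2, Ly6c1 in basal against luminal SOX10 high cells was at -1.15 in place of -1.84. The 3 comparisons share libraries, so they are not separate evidence.

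The hormone-sensing markers again stood in the order of the Ly6 genes, with sums of 1271 and 1672 RPKM in luminal SOX10 low, 332 and 590.1 in luminal SOX10 high, and 44.9 and 74.0 in basal libraries. Of the 5 markers, 5 reached 1 RPKM in each luminal library and 3 or 4 in the basal ones, and none was at 0. Epithelial markers (Epcam, Krt8, Krt18 and Cdh1) summed to 5305 to 5387 RPKM in luminal SOX10 low, 2847 to 3160 in luminal SOX10 high and 342 to 394 in basal libraries, all 4 being at 1 RPKM or more throughout. Markers of skin keratinocytes, a cell type known for Ly6d, summed to 299 and 480.2 RPKM in luminal SOX10 low, 109.3 and 242 in luminal SOX10 high, and 46.5 and 59.2 in basal libraries, with 4 or 5 of 9 at 1 RPKM or more. The part of these cell states in the Ly6 values was not tested.

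In the C3-1-TAg tumours, all 6 genes had lower means in SOX10 high cells, but the libraries of a group varied so widely that 5 of the 6 genes overlapped between groups. Ly6a was 4.05, 14.5, 31.7, 94.5 and 195.9 RPKM in the SOX10 high libraries and 86.0, 122, 304 and 462 in the SOX10 low ones. The overlap came from SOX10 high replicates 1 and 2, which lay above the lowest SOX10 low library. The log2 difference was -2.52 (SE 0.97).

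For Ly6d, the SOX10 high libraries held 69.6, 111.5, 339, 469 and 492 RPKM and the SOX10 low ones 192.5, 632, 676 and 843. One SOX10 low library, the one with high immune markers, lay among the SOX10 high ones. The difference was -1.17 (SE 0.66), and it was -0.75 without SOX10 high replicate 5. Ly6e was 429, 458, 469.6, 674 and 677 RPKM in SOX10 high and 371, 627, 658 and 776 in SOX10 low libraries, with a difference of -0.15 (SE 0.29). The groups were thus level within their spread for this member.

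Ly6c1 had 1 library far above the rest in each group. In SOX10 high it was 0.960, 1.99, 4.01, 4.29 and 21.2 RPKM, and in SOX10 low 2.65, 7.38, 7.63 and 102.7. The highest libraries, SOX10 high replicate 1 and SOX10 low replicate 2, also had the highest Ly6a of their groups. Their 5 basal markers (Krt5, Krt14, Trp63, Acta2 and Myh11) summed to 780.8 and 1009.7 RPKM, the highest sums of their groups. Krt14 gave 776 and 1007 RPKM of these, and only 3 and 2 of the 5 markers were at 1 RPKM or more. The endothelial marker sums were 3.61 and 1.29 RPKM. The part of basal or vessel cells in these Ly6c1 values was not tested. The log2 difference of Ly6c1 was -1.33 (SE 0.94), and without SOX10 low replicate 2 it was -0.33 (SE 0.69).

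Ly6c2 was 0, 0.034, 0.109, 0.169 and 0.172 RPKM in SOX10 high and 0.330, 0.429, 1.32 and 2.14 in SOX10 low libraries. It was the 1 member of 6 whose groups did not overlap, beside 1.06% of all genes tested, but it failed the filter and was not itself among those tested. Its highest value, 2.14 RPKM, was in SOX10 low replicate 1, the library with high immune markers. The part of immune cells in the Ly6c2 values was not tested. Ly6k was 0.089 to 0.963 RPKM in SOX10 high and 0.110 to 2.34 in SOX10 low libraries and failed the filter too.

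**Figure D3:**
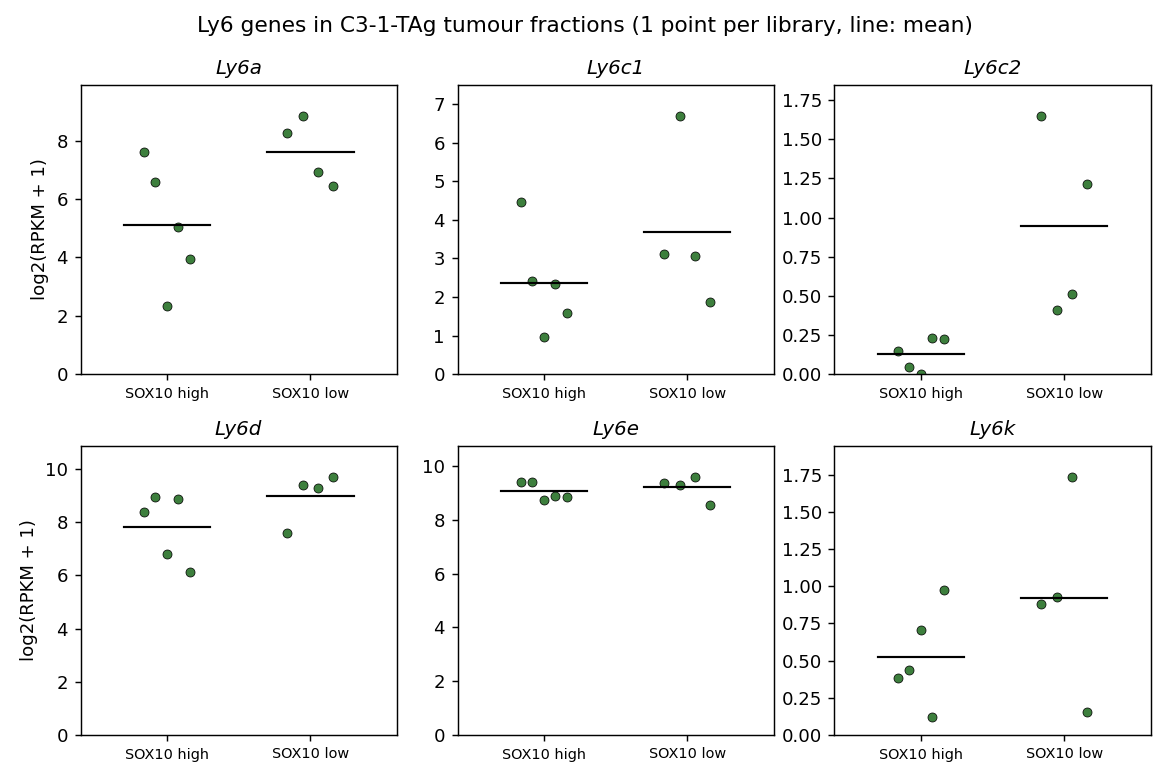
Level of each Ly6 gene in the 9 C3-1-TAg libraries, as log2(RPKM + 1) after the constant was taken off, with 1 point per library and a line at the group mean. The groups overlap for every gene but Ly6c2, and 1 library per group stands high for Ly6c1.

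None of the 4 C3-1-TAg members tested by limma was called, 0 in either direction, beside 0.0418% of all genes called higher and 0% lower, and 365 of all 11948 genes had an unadjusted p under 0.05. Leaving out SOX10 low replicate 1 (Ptprc, the pan-leukocyte gene, at 19.6 RPKM against 0.078 to 0.868 elsewhere) gave differences of -2.31 for Ly6a, -1.53 for Ly6c1, -1.64 for Ly6d and -0.09 for Ly6e. Over all single libraries left out, Ly6a ran from -3.15 to -1.83 and Ly6d from -1.64 to -0.75. The hormone-sensing markers were sparse here, at 3.68 to 15.5 RPKM in SOX10 high and 9.66 to 130.4 in SOX10 low libraries, with Prlr at 2.92 to 30.7 over all 9.

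**Figure D4:**
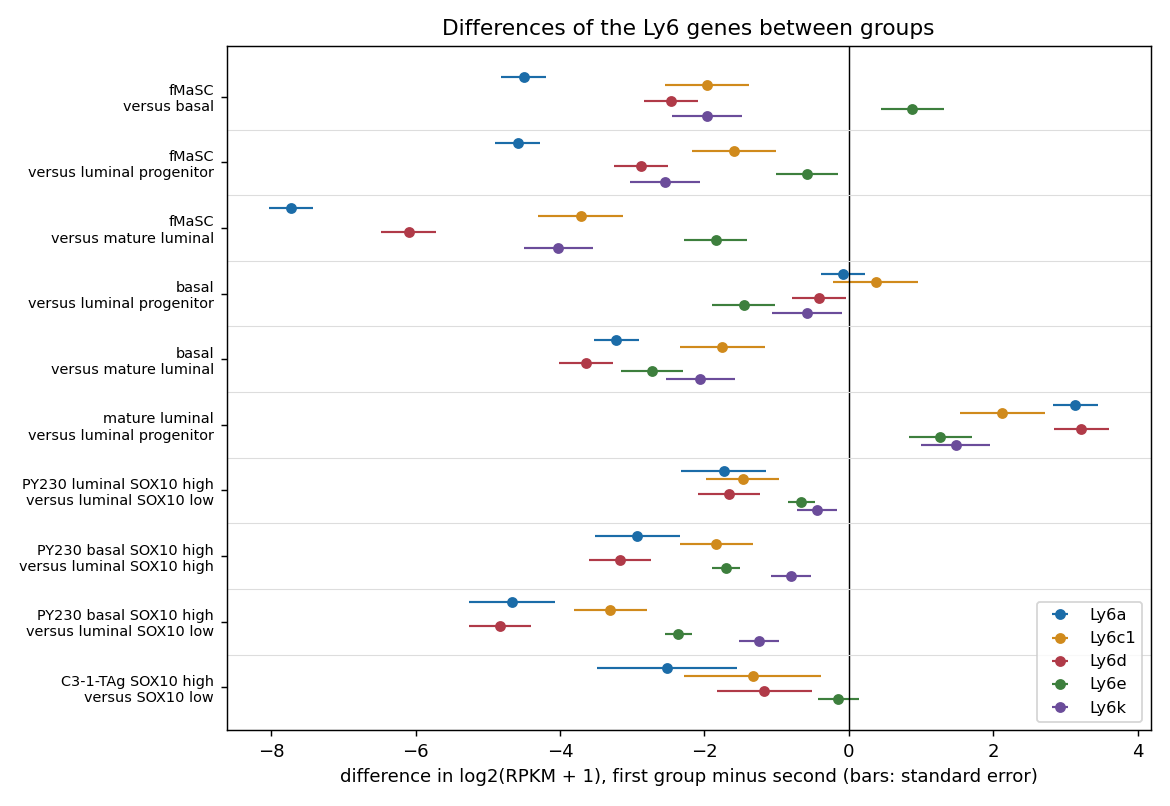
Difference in log2(RPKM + 1) of the Ly6 genes in all 10 comparisons, first group minus second, with bars of 1 standard error. Ly6c2 is left out because it was listed at 0 or failed the filter in a group of each comparison. Ly6a lies farthest from 0 in fMaSC against mature luminal cells, and Ly6e is the 1 gene above 0 in fMaSC against basal cells.

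Ly6e was the highest of the 6 genes in 7 of 8 normal, 4 of 6 PY230 and 7 of 9 C3-1-TAg libraries, and Ly6d in the rest. Together the 6 genes took 2.59% and 2.34% of the summed RPKM in mature luminal libraries, 0.570% and 0.609% in luminal progenitor, 0.480% and 0.220% in basal, and 0.296% and 0.281% in fMaSC. In PY230 the shares were 0.969% and 0.942% in luminal SOX10 low, 0.367% and 0.546% in luminal SOX10 high, and 0.103% and 0.114% in basal libraries.

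The other genes of the Ly6/uPAR family did not all go with the 6. Of 30 listed in the normal libraries, 13 passed the filter, and 1 was called higher and 4 lower in mature luminal than in luminal progenitor cells (median -0.38, beside -0.04 for all genes). Of all genes, 8.63% were called higher and 13.4% lower. The higher one, Lypd8, reached the filter only through mature luminal cells, so it could differ only in that direction. The 4 lower ones were Lypd3, Plaur, Cd59a and Pinlyp. Lypd3, the keratinocyte antigen C4.4A, was 359 and 436 RPKM in luminal progenitor libraries and 71.7 and 65.0 in mature luminal ones (difference -2.52, SE 0.19, limma adjusted p = 0.000479). Plaur, the urokinase receptor, was 237 and 169.8 against 42.2 and 27.6 RPKM (-2.52, SE 0.33, limma adjusted p = 0.00281). Cd59a, an inhibitor of complement, was 24.3 and 37.6 against 3.93 and 5.11 RPKM (-2.51, SE 0.38, limma adjusted p = 0.00472). For these 3 the luminal progenitor libraries all lay above the mature luminal ones, the opposite of Ly6a and Ly6d. Pinlyp was called too, but not without luminal progenitor replicate 2 (limma adjusted p = 0.0777) or mature luminal replicate 2 (0.0992). With a pseudocount of 0.1 the count of family genes called was 3 in place of 5, and it was 3 without mature luminal replicate 2.

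Fetal cells carried family genes that adult cells had little of. Cd177, a neutrophil antigen, was 8.76 and 6.76 RPKM in fMaSC, listed at 0 in all basal and mature luminal libraries, and at 0.685 and 0 in luminal progenitor ones. Lypd6, a modulator of Wnt signalling, was 3.97 and 3.36 RPKM in fMaSC, 1.01 and 1.78 in basal, and listed at 0 in all 4 luminal libraries. Lypd6b was 2.75 and 3.62 RPKM in fMaSC and 0 to 0.702 in the adult libraries. Cd177 and Lypd6b reached the filter on low values only through fMaSC, so they could differ only in that direction, and their values are a description. Lypd6 passed the filter in basal libraries too and rose in fMaSC against basal cells by 0.97 (SE 0.21, limma adjusted p = 0.00546). Against luminal progenitor and mature luminal cells, where it was listed at 0, Lypd6 could only be higher. It is counted as higher in fMaSC and in basal cells against both. Over the family list, with Cd177 and Lypd6b among the higher ones each time, fMaSC had 3 genes higher and 2 lower than basal cells (median 0.00), 3 and 4 against luminal progenitor (median -0.32), and 4 and 3 against mature luminal cells (median 0.57). Of all genes, 36.9%, 35.5% and 41.7% were called higher in these comparisons and 23.4%, 15% and 14.7% lower. Lypd8, with its limit at the filter, was among the lower ones of fMaSC and of basal cells against mature luminal cells. Those 5 calls against basal cells were 2 or 3 without fMaSC replicate 1 or 2, the 7 against luminal progenitor cells were 4 without fMaSC replicate 2, and the 7 against mature luminal cells were 3, 4 and 4 without fMaSC replicate 1, fMaSC replicate 2 and mature luminal replicate 1. Basal against luminal progenitor cells gave 2 higher and 3 lower (median -0.32; 3 calls without luminal progenitor replicate 2), and basal against mature luminal cells gave 4 higher and 1 lower (median 0.06; 9 calls without basal replicate 1).

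In PY230, 11 of 31 family genes listed passed the filter, and most that were called followed the 6. In basal against luminal SOX10 low cells 7 fell and 2 rose (median -2.09, beside -0.16 for all genes), and against luminal SOX10 high cells 6 fell and 1 rose (median -1.16, beside -0.21). Among those that fell, Ly6g6d, Spaca4 and 2010109I03Rik were under 1 RPKM in both basal libraries. These passed the filter through luminal cells alone, so in basal cells they could differ only in that direction. Ly6g6c, a member of the small Ly6 cluster in the major histocompatibility region, was 24.8 and 24.7 RPKM in luminal SOX10 low, 5.002 and 11.1 in luminal SOX10 high, and 0.719 and 1.35 in basal libraries (basal minus luminal SOX10 low -3.68, SE 0.33, limma adjusted p = 0.00019). Its neighbour Ly6g6e was 21.3 and 13.2, 6.18 and 11.6, and 0.337 and 1.51 RPKM in the same order (-3.28, SE 0.40, limma adjusted p = 0.000663). Ly6g6d was level between the luminal fractions, at 7.49 and 6.31 RPKM in SOX10 low and 7.10 and 6.02 in SOX10 high cells, and was 0.254 and 0.762 in basal libraries. Lypd3 and Plaur, which had gone against the 6 in normal luminal cells, were lower in PY230 basal than in luminal SOX10 low cells, with differences of -2.65 (SE 0.28, limma adjusted p = 0.000354) and -2.09 (SE 0.16, limma adjusted p = 0.000107).

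Ly6h ran opposite to the 6. This family member is known from brain, where it acts on nicotinic receptors. It was 178 and 185 RPKM in PY230 basal, 29.5 and 14.6 in luminal SOX10 high, and 3.81 and 2.16 in luminal SOX10 low libraries, with no overlap. The basal minus luminal SOX10 low difference was 5.55 (SE 0.33, limma adjusted p = 4.86e-05), and the luminal SOX10 high minus low difference was 2.48 (SE 0.33, limma adjusted p = 0.0068). In the normal table Ly6h reached at most 0.291 RPKM, and in C3-1-TAg libraries 0.136 to 3.42. Between the luminal fractions, Ly6g6c, Lynx1 and Plaur fell and Ly6h rose in SOX10 high cells (median of 11 genes -0.78, beside 0.01 for all genes). Those 4 calls came down to 1, Ly6h, without luminal SOX10 high replicate 1, luminal SOX10 low replicate 1 or luminal SOX10 low replicate 2. In C3-1-TAg, 8 of 31 family genes were tested by limma and 0 were called, with 0 at an unadjusted p under 0.05 (median -0.18, beside -0.04).

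**Figure D5:**
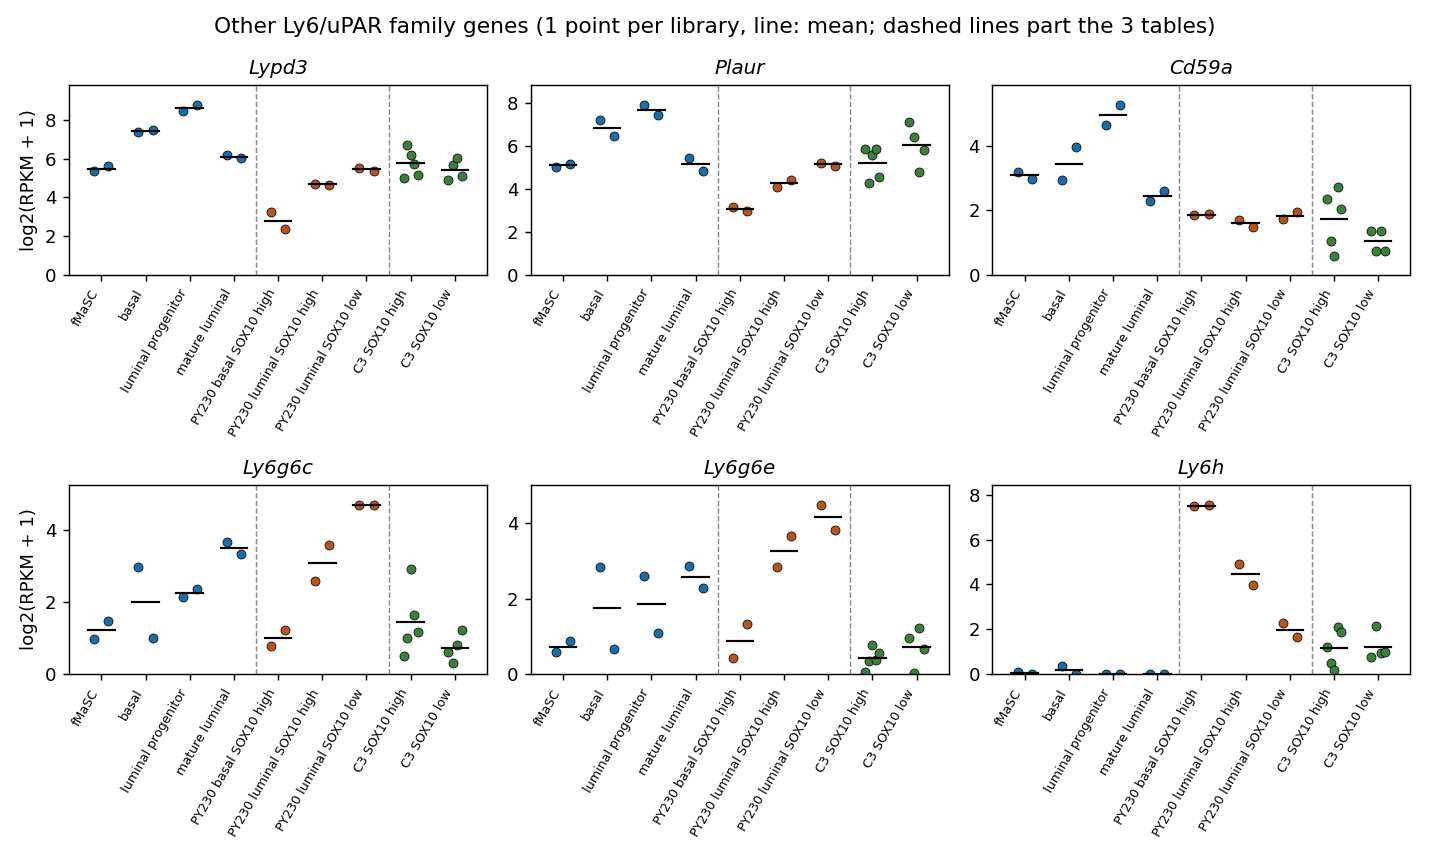
Level of 6 other Ly6/uPAR family genes in all 23 libraries, as log2(RPKM + 1) with 1 point per library, a line at the group mean and dashed lines between the separately normalized tables. Lypd3, Plaur and Cd59a peak in luminal progenitor cells, Ly6g6c and Ly6g6e peak in PY230 luminal SOX10 low cells, and Ly6h peaks in PY230 basal cells.

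Interferon-induced genes were counted because Ly6a, Ly6c1 and Ly6e are known interferon targets. Of 29 tested in the normal table, 20 fell and 2 rose in fMaSC against mature luminal cells (median -1.48, beside 0.53 for all genes), 20 fell and 1 rose against luminal progenitor (median -1.34), and 11 fell and 1 rose against basal cells (median -0.82). Of all genes, 14.7%, 15% and 23.4% were called lower in these comparisons. Psmb8, an immunoproteasome subunit, was 4.63 RPKM in fMaSC on average and 139.7 in mature luminal cells (difference -4.63, SE 0.54, limma adjusted p = 0.000351). In basal against mature luminal cells 11 fell and 3 rose (median -0.60), and in basal against luminal progenitor cells 5 fell and 1 rose (median -0.37). The shares of all genes were 19.8% and 14.5% lower and 28.8% and 21% higher. In mature luminal against luminal progenitor cells 5 rose and 2 fell (median 0.41), beside 8.63% of all genes higher and 13.4% lower. Gbp2 and Ifitm3 were among those that rose. Ifit2 and Cxcl10 fell (Cxcl10 -2.77, SE 0.34, limma adjusted p = 0.00237). The part of interferon in the Ly6 values was not tested.

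In PY230 luminal SOX10 high against SOX10 low cells, 6 of 30 interferon-induced genes rose and 3 fell (median 0.19), beside 12.6% of all genes higher and 10% lower. Gbp3 rose by 1.74 (SE 0.25, limma adjusted p = 0.00851) and Ifit2 by 1.75 (SE 0.29, limma adjusted p = 0.0128). In basal cells 18 fell and 2 rose against luminal SOX10 high (median -0.67), beside 28.2% of all genes lower and 13.8% higher. Against luminal SOX10 low cells 16 fell and 6 rose (median -0.69), beside 33.4% lower and 21.8% higher. Oas2 was 2.52 RPKM on average in basal and 34.3 in luminal SOX10 low cells (-3.33, SE 0.19, limma adjusted p = 4.44e-05). In C3-1-TAg limma called 0 of 29, with 1 at an unadjusted p under 0.05 (median -0.80).

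Genes for the enzymes that build and attach the GPI anchor, on which Ly6 proteins depend, were counted as well. Of 24 tested in normal cells, 16 rose and 1 fell in fMaSC against basal cells (median 1.57), beside 36.9% of all genes higher and 23.4% lower. Against luminal progenitor cells 10 rose and 1 fell (median 0.93), beside 35.5% of all genes higher, and against mature luminal cells 9 rose and 1 fell (median 0.55, beside 0.53 for all genes), beside 41.7% higher. The share that rose was near that of all genes in both. Pigs, a transamidase subunit, was 80.4 RPKM on average in fMaSC and 13.1 in mature luminal cells (2.53, SE 0.24, limma adjusted p = 0.000128). In basal against mature luminal cells 1 rose and 11 fell (median -0.75), in basal against luminal progenitor cells 2 rose and 4 fell (median -0.46), and in mature luminal against luminal progenitor cells 4 rose and 0 fell (median 0.30). The shares of all genes were 28.8%, 21% and 8.63% higher and 19.8%, 14.5% and 13.4% lower. In PY230, of 26 tested, 2 rose and 4 fell in luminal SOX10 high against low cells (median -0.22), 1 rose and 5 fell in basal against luminal SOX10 high (median -0.13), and 4 rose and 9 fell in basal against luminal SOX10 low cells (median -0.28). The shares of all genes were 12.6%, 13.8% and 21.8% higher and 10%, 28.2% and 33.4% lower. Of 26 in C3-1-TAg limma called 0, with 0 at an unadjusted p under 0.05 (median -0.00).

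Genes outside the family that neighbour the cluster on chromosome 15 were also counted. Among normal cells 5 were tested, of which 3 rose in fMaSC against basal, 3 against luminal progenitor and 4 against mature luminal cells, and 0 fell in these (medians 0.87, 0.80 and 1.22). Of all genes, 36.9%, 35.5% and 41.7% were called higher in these comparisons and 23.4%, 15% and 14.7% lower. In basal cells 1 rose and 1 fell against luminal progenitor (median -0.52), 1 rose and 0 fell against mature luminal cells (median -0.33), and 0 rose and 1 fell in mature luminal against luminal progenitor cells (median -0.43). The shares of all genes were 21%, 28.8% and 8.63% higher and 14.5%, 19.8% and 13.4% lower. In PY230, 5 of 10 rose and 2 fell in basal cells against either luminal fraction (medians 0.59 and 0.40), and 1 rose and 2 fell between the luminal fractions (median 0.11). Against luminal SOX10 high cells 13.8% of all genes were called higher and 28.2% lower in basal cells, and against SOX10 low 21.8% and 33.4%. Between the luminal fractions 12.6% were called higher and 10% lower in SOX10 high cells. Arc, an immediate early gene of neurons, was 428 RPKM on average in PY230 basal and 12.6 in luminal SOX10 low cells (4.96, SE 0.24, limma adjusted p = 3.32e-05), the reverse of Ly6a and Ly6d. In C3-1-TAg limma called 0 of 10, with 0 at an unadjusted p under 0.05 (median -0.06).

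The genes with the pattern most like each member were ranked by Pearson r of log2(RPKM + 1), which is given without a p because the points share groups and libraries. Over the 8 normal libraries, Ly6a was most like Dock5 (r = 0.996), Krt78 (0.996) and Ido1 (0.995), and Ly6d was most like Nupr1 (0.995), Ube2q2 (0.995) and Ezr (0.994). Ly6e was most like 2610528J11Rik (0.986), Csnk1e (0.984) and Scarb2 (0.980), and Ly6c1 was most like Cdyl2 (0.981), Pqlc3 (0.978) and Iigp1 (0.968). Ly6k was most like Rhbdd1 (0.992), Zfp746 (0.987) and Slk (0.981). For Ly6c2, at 0 in 6 of the 8 libraries, the closest were Mir6929 (0.998), Rpl37rt (0.996) and Spef2 (0.994), which says little. Over the 9 C3-1-TAg libraries, Ly6a was most like Dse (0.959), Myof (0.959) and Adck1 (0.944), and Ly6d was most like Zfp628 (0.955), Tmem200b (0.928) and Mutyh (0.908). Ly6c1 there was most like Gm13032 (0.961), D230025D16Rik (0.952) and Padi1 (0.950), and Ly6e was most like Vps13c (0.953), Fkbp8 (0.939) and 9530027J09Rik (0.936). No gene was among the closest 3 of the same member in both tables.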

How the data were processed

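RNA of 23 libraries had been prepared by the authors with Smart-seq2, per the labels' protocols, with 18 and then 10 PCR cycles and single-end reads. Per the submitters' processing notes, FastQC, HISAT2 2.0.5, StringTie 1.3.1c and build mm9 were used. The authors deposited RPKM in 3 tables, and read counts were not used here. From these, 2 was taken off C3-1-TAg values above 0, because the smallest deposited one was 2.001 and none lay between 0 and 2, and symbols were matched ignoring case. Limma 3.58.1 (R 4.3.3, intensity trend) was fitted to log2(RPKM + 1) with group means over all groups of a table. Genes had at least 1 RPKM in at least 2 libraries (4 in C3-1-TAg), and p-values were two-sided and Benjamini-Hochberg adjusted over all of them. The fit was tested on simulated data.

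The members, lists and tests were chosen with earlier results of these data known. Named genes are the 6 members, up to 4 called genes per list and comparison with the largest change, and family genes with a group mean of at least 10 RPKM. Lypd8, Spaca4 and 2010109I03Rik are named only for their limit at the filter, and Gpihbp1 and other called genes are counted only. The series design calls the samples of a group biological replicates. Replicate numbers were not shown to pair libraries. The alternatives were a pseudocount of 0.1, no filter, quantile normalization, median-of-ratios scaling, a replicate block, no trend, Ly6c1 and Ly6c2 summed, C3-1-TAg values as deposited, and each library left out. The precision of low values is limited by depth, which RPKM do not give, so no counting interval is printed. Shared words were counted in GENCODE M21 transcripts.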

Additional observations from a re-analysis of the deposited data

Results flagged for a closer look

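Of 26 groups of 4 or 5 C3-1-TAg libraries examined, 5 had 1 library far from the others relative to the group's range. The gaps were taken on RPKM and not on the log2 scale, and each of the 5 was the highest library of its group. The groups also share the same libraries. A chance rate of about 1 in 20 groups therefore cannot be assumed, and nothing is read from the count. Ly6c1 gave 2 of these: SOX10 high replicate 1 had 21.2 RPKM where the others had 0.960 to 4.29, and SOX10 low replicate 2 had 102.7 RPKM where the others had 2.65 to 7.63. In the same SOX10 low replicate 2, Ly6h was 3.42 RPKM where the others had 0.720 to 0.989. Ly6g6c was 6.61 RPKM in SOX10 high replicate 3 where the others had 0.424 to 2.11. Pinlyp was 1.43 RPKM in SOX10 high replicate 2 where the others had 0.093 to 0.168.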

How the results depend on the processing

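No called difference changed sign under any alternative run. Of the member counts, basal against luminal progenitor cells had 1 call, and 0 with no filter and 0 with quantile normalization. PY230 luminal SOX10 high against low cells had 1, and 0 with no filter, 0 with quantile normalization, 2 with median-of-ratios scaling, 2 with the replicate block and 2 with no trend. The other family count in mature luminal against luminal progenitor cells was 5, and 3 with a pseudocount of 0.1. Under these alternatives the other counts stayed within 1.5 times, and the cause of these moves was not tested. With single libraries left out, the calls of members and of other family genes ran from 2 to 5 and 2 to 7 (fMaSC against basal), 3 to 4 and 4 to 9 (against luminal progenitor), 4 to 6 and 3 to 5 (against mature luminal), 0 to 2 and 3 to 7 (basal against luminal progenitor), 3 to 6 and 4 to 9 (basal against mature luminal), 2 to 3 and 3 to 5 (mature luminal against luminal progenitor), 0 to 3 and 1 to 6 (PY230 luminal SOX10 high against low), 3 to 5 and 6 to 8 (basal against luminal SOX10 high), 5 to 5 and 8 to 9 (basal against luminal SOX10 low) and 0 to 0 for both in C3-1-TAg. A lone library was assumed to vary like the other groups. The replicate block changed no other count by more than 1.5 times. Same-numbered libraries deviated together with r between 0.00 and 0.22 in normal cells (2 pairs), -0.26 and 0.30 in PY230 (2 pairs) and -0.34 and 0.20 in C3-1-TAg (4 pairs). With 2 libraries a group the deviations mirror each other, so both pairs hold 1 value. The same number correlated best in every normal comparison and in PY230 basal against luminal SOX10 high cells. It did so in no other PY230 comparison and for no C3-1-TAg library. As this varied between comparisons, the numbers were not taken to pair the libraries. Quantile normalization moved Ly6e from -0.66 to -0.22 between the PY230 luminal fractions and from -1.85 to -1.06 in fMaSC against mature luminal cells. It moved Ly6a from 3.14 to 2.45 in mature luminal against luminal progenitor cells. In fMaSC against mature luminal cells, median-of-ratios scaling moved Ly6a from -7.73 to -8.16. There a pseudocount of 0.1 moved Ly6k from -4.02 to -5.65. These are examples, and further member differences moved under the same 3 settings. RPKM give no read counts, so values under about 1 RPKM have unknown precision.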

Other observations

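The ratio of Ly6a to Ly6d, which lie in the same gene cluster, differed between libraries. It was 0.225 and 0.198 in the fMaSC libraries, 0.820 and 1.01 in basal, 0.692 and 0.757 in luminal progenitor, and 0.810 and 0.578 in mature luminal libraries. In PY230 it stayed between 0.476 and 0.763 in all 6 libraries, although Ly6a itself ran from 15.3 to 764 RPKM. In C3-1-TAg it ran from 0.036 to 0.579 in SOX10 high and from 0.102 to 1.58 in SOX10 low libraries, and the library at 1.58 was SOX10 low replicate 1, the one with high immune markers. These ratios are values without a test.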
